A study of Mus musculus with 18 samples.

Results

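The genes described here are the families that build and control the machinery of synaptic vesicle fusion: synaptotagmins (Syt), syntaxins (Stx), syntaxin binding proteins (Stxbp), vesicle associated membrane proteins (Vamp), complexins (Cplx), the Snap genes, Rab3 and the synapsins with synaptophysin (Syn and Syp). They were defined by gene symbol, with earlier results of these data known, and number 61 of the 19057 genes named on the array. Each was read at its brightest probe. The RNA came from hippocampus of C57Bl6/J mice and was hybridised to 18 Illumina bead arrays in 4 groups. Adult cannabis mice (5 arrays, labelled P56) and P28 cannabis mice (4 arrays) had received a cannabis extract by mouth, daily at 20 mg/kg, in a sweetened milk and olive oil emulsion for 14 days, from postnatal day 14 to 28. Adult vehicle mice (5 arrays) and P28 vehicle mice (4 arrays) had received the same emulsion without the extract. Tissue at P28 was taken 70 to 80 min after a feed began. Adults were killed weeks after dosing, after behavioural tests and a phencyclidine challenge with a washout, so age and that history cannot be told apart. Nothing in the labels ties an array to its own mouse, and the errors and p-values therefore measure spread between arrays that may be technical. All values are log2 intensities that were not background-subtracted, so differences are compressed, most for dim probes, and levels of different genes cannot be set against each other.

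A vesicle fuses when a SNARE protein on it (a Vamp) zips together with SNARE proteins of the target membrane (a syntaxin and a Snap protein). Some synaptotagmins, such as Syt1, act as calcium sensors that trigger this step. Complexins clamp and promote it, and proteins of the Stxbp group chaperone or block the syntaxin. Rab3 proteins tether vesicles to the release site, synapsins hold the reserve pool, and synaptophysin is an abundant protein of the vesicle membrane that binds Vamp2. In the hippocampus these proteins set how much glutamate or GABA each nerve impulse releases.

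A level of 6.98 marks the top of the signal of unexpressed probes (their peak plus 3 SD), and a probe was tested if it exceeded this level on at least 4 arrays. By this rule 45 of the 61 genes were tested, among 10433 genes in all, and 42 of the 45 were above it on all 18 arrays. The other 3 were dim: Rab3c was above it on 11 arrays, Syt17 on 6 and Stxbp3 on 7. Those not tested were Syt2, Syt3, Syt6, Syt8, Syt10, Syt14, Syt15, Stx2, Stx11, Stx16, Stx19, Stxbp6, Vamp5, Cplx3, Cplx4 and Snap25. Of these 16 genes, 14 exceeded the level on 0 arrays, Syt3 on 1 and Stx19 on 2. Snap25, the plasma membrane SNARE partner of Stx1a and one of the abundant transcripts of neurons, was read by a pair of probes that both stayed at background, so these arrays give no value for it. Of the hippocampal field neuron markers, 7 of 8 were above background, among them Prox1 of dentate granule cells and Wfs1 of CA1, with Neurod6 not above background.

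Within groups, replicates 4 and 5 differed from the first 3. Of the 45 genes tested, 11 differed between these sets by limma with adjustment over all probes: 4 were higher in replicates 4 and 5 (background 10.7% of genes) and 7 lower (background 12.9%). Snap91, the clathrin adaptor AP180, which shares its name with the SNAREs but retrieves Vamp2 from the membrane, had the widest shift, 0.54 ± 0.13 (log2 difference, moderated SE; adjusted p = 0.00574). Stx6, a syntaxin of the trans-Golgi network and endosomes, was 0.29 ± 0.049 (adjusted p = 0.000604), Rab3a, the main Rab3 of synaptic vesicles, 0.22 ± 0.056 (0.01) and Rab3c 0.15 ± 0.037 (0.00685). Lower in replicates 4 and 5 were Snap47 (-0.31 ± 0.10), Syt4 (-0.31 ± 0.084), Snap23 (-0.25 ± 0.063), Stxbp4 (-0.23 ± 0.057), Stxbp5 (-0.22 ± 0.048), Stx7 (-0.21 ± 0.056) and Rab3d (-0.13 ± 0.042). Each treatment has equally many arrays in both sets at a given age, whereas P28 groups hold 1 late array and adult groups 2. Age differences within each set are therefore given for the genes described by array, and values with the sets as a block where the block changed a call. The labels name no batch.

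**Figure D1:**
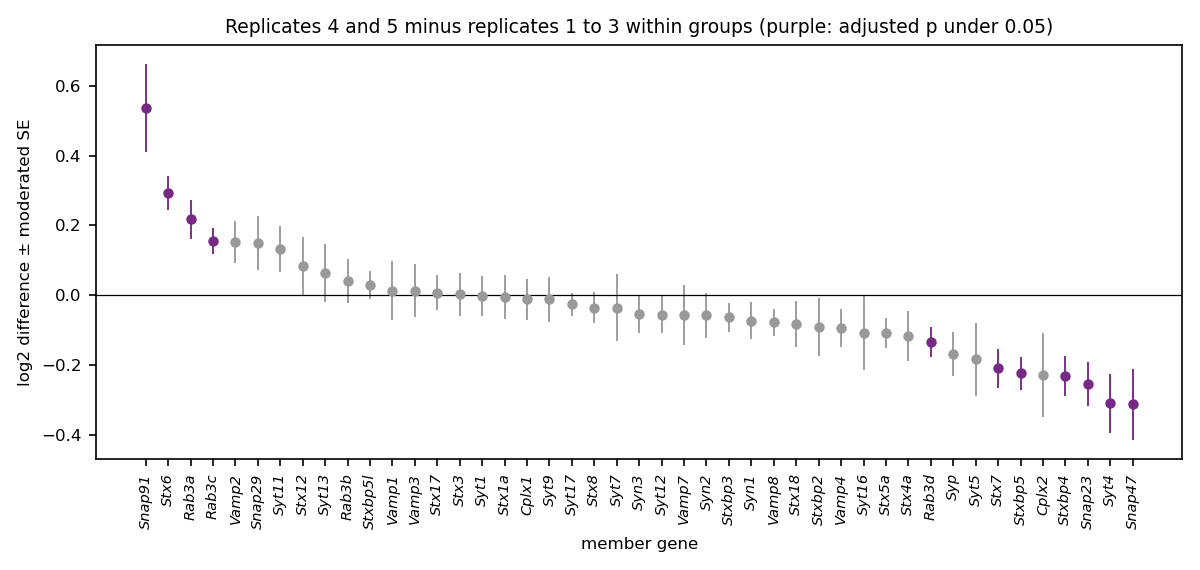
Log2 difference of replicates 4 and 5 minus replicates 1 to 3 within groups (y axis, point with moderated SE) for the 45 genes tested (x axis, in order of the difference); purple marks the 11 past an adjusted p of 0.05. Snap91 and Stx6 stand at the upper end, Syt4 and Snap47 at the lower.

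The first question is how these genes differed between adult and P28 hippocampus. Syt4, Syt7, Cplx2 and Syn2 had the largest upward differences of the 45 genes in vehicle mice, between 0.33 and 0.57 on the log2 scale, and in cannabis mice, whose groups share no array with the vehicle groups, they were between 0.23 and 0.43. Vamp3 had the largest downward difference in both treatments, -0.21 in cannabis and -0.35 in vehicle mice. No gene of the 8 families passed an adjusted p of 0.05 by limma in either comparison (0 higher and 0 lower of 45). Over all genes tested 0% were called higher and 0.0192% lower in cannabis mice, and 0.268% and 0.939% in vehicle mice. At an unadjusted p under 0.05 the counts for cannabis mice were 7 higher (background 4.29%) and 1 lower (background 7.04%). For vehicle mice they were 6 higher (background 6.16%) and 3 lower (background 8.69%). With replicates 4 and 5 as a block 0 genes passed in cannabis mice (background 0.00958% higher and 0.0383% lower), and 2 in vehicle mice, Syt4 and Syn2, both higher in adults (background 0.891% and 1.78%).

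Among the synaptotagmins, Syt4 is activity-inducible and found on BDNF-containing vesicles. It was at 11.13, 10.93, 11.08, 10.39 and 10.88 in adult cannabis mice, against 10.65, 10.52, 10.72 and 10.29 in P28 cannabis mice. Adult replicate 4 lay among the P28 arrays and the other adult arrays above them, with a difference of 0.34 ± 0.15 (moderated SE; limma adjusted p = 0.422). In adult vehicle mice it was at 11.50, 10.87, 11.21, 11.09 and 10.80, against 10.63, 10.49, 10.59 and 10.37 in P28 vehicle mice. Every adult array was above every P28 array there, and the difference was 0.57 ± 0.15 (adjusted p = 0.0669). With the block it was 0.39 in cannabis mice (adjusted p = 0.144) and 0.62 in vehicle mice (0.0109). Without the block it also passed in vehicle mice when adult vehicle replicate 2 or adult cannabis replicate 4 was left out. Within replicates 1 to 3 the difference was 0.42 in cannabis and 0.62 in vehicle mice, and within replicates 4 and 5 0.35 in cannabis and 0.57 in vehicle mice.

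Syt7, a high-affinity sensor that drives slow release and facilitation, was at 10.06, 9.99, 10.15, 9.97 and 10.67 in adult cannabis mice and at 9.76, 9.78, 9.98 and 9.43 in P28 cannabis mice. Adult replicate 5 was far above the rest and adult replicate 4 lay just below the highest P28 array, with a difference of 0.43 ± 0.13 (adjusted p = 0.195 by limma). Adult vehicle arrays read 10.45, 10.15, 10.27, 10.26 and 10.06 and P28 vehicle arrays 9.77, 9.67, 9.83 and 9.79. These groups did not overlap, and the difference was 0.47 ± 0.13 (adjusted p = 0.0774). It passed in vehicle mice when adult cannabis replicate 5, which enters the shared variance, was left out. Within replicates 1 to 3 the differences were 0.23 in cannabis and 0.53 in vehicle mice, and within replicates 4 and 5 0.89 in cannabis and 0.37 in vehicle mice. The fast sensor of hippocampal synapses, Syt1, differed by -0.072 ± 0.076 in cannabis and -0.032 ± 0.076 in vehicle mice at its brightest probe, but a second bright probe gave 0.26 ± 0.13 and 0.21 ± 0.13, the opposite sign. Syt16 differed by -0.0085 ± 0.15 in cannabis and -0.31 ± 0.15 in vehicle mice (adjusted p = 0.368 by limma). Of the 10 synaptotagmins tested, 3 had a difference above 0 and 7 below 0 in each treatment. Their median was -0.024 in cannabis and -0.073 in vehicle mice, against -0.0032 and -0.00051 over all genes tested.

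Among the syntaxins, Stx1a, the plasma membrane syntaxin of nerve terminals, was at 11.24, 11.42, 11.05, 11.44 and 11.26 in adult cannabis mice and at 11.42, 11.36, 11.48 and 11.32 in P28 cannabis mice. These groups overlapped, with a difference of -0.12 ± 0.084, which was -0.19 within replicates 1 to 3 and 0.026 within replicates 4 and 5. In adult vehicle mice it was at 11.24, 10.99, 11.33, 11.05 and 11.27, against 11.57, 11.40, 11.35 and 11.38 in P28 vehicle mice. Every adult vehicle array was below every P28 vehicle array, and the difference was -0.25 ± 0.084 (adjusted p = 0.166 by limma), -0.25 within replicates 1 to 3 and -0.22 within replicates 4 and 5. Stx3, a plasma membrane syntaxin also used in postsynaptic exocytosis, differed by 0.20 ± 0.080 in cannabis and 0.072 ± 0.080 in vehicle mice, but its other probe gave -0.16 ± 0.056 and -0.067 ± 0.056. Of the endosomal syntaxins, Stx7 differed by 0.017 in cannabis and -0.092 in vehicle mice, Stx8 by 0.13 and 0.10, and Stx12 by 0.072 and 0.21. The 3 dimmer Stx8 probes differed in sign from it or among themselves, at 0.067 ± 0.088, -0.15 ± 0.049 and -0.14 ± 0.060 in cannabis and -0.096 ± 0.088, -0.033 ± 0.049 and 0.089 ± 0.060 in vehicle mice. Over the 10 syntaxins tested the median was 0.044 in cannabis and 0.0073 in vehicle mice.

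The 5 syntaxin binding proteins ranged from -0.068 to 0.11 in cannabis and from -0.065 to 0.083 in vehicle mice. Stxbp5, tomosyn, which holds SNAREs back from assembly, was at 9.85, 10.02, 10.12, 9.92 and 9.82 in adult cannabis mice and 9.95, 9.75, 10.02 and 9.61 in P28 cannabis mice. Its vehicle arrays read 10.08, 10.14, 10.04, 9.85 and 9.74 in adults and 9.96, 9.91, 9.95 and 9.73 at P28. The groups overlapped in both treatments, and the differences were 0.11 ± 0.095 in cannabis and 0.083 ± 0.095 in vehicle mice. By set, within replicates 1 to 3, they were 0.091 in cannabis and 0.15 in vehicle mice, and within replicates 4 and 5 0.26 and 0.060.

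Of the vesicle SNAREs, Vamp3 (cellubrevin), which serves constitutive fusion in many cell types including glia, was at 9.57, 9.74, 9.64, 9.83 and 9.77 in adult cannabis mice and 9.73, 10.19, 9.78 and 9.98 in P28 cannabis mice, a difference of -0.21 ± 0.10 (adjusted p = 0.475 by limma). In adult vehicle mice it was at 9.36, 9.56, 9.78, 9.60 and 9.49, against 9.84, 10.12, 9.92 and 9.74 in P28 vehicle mice, a difference of -0.35 ± 0.10 (0.103). In cannabis mice 3 of the 5 adult arrays lay inside the P28 range, and in vehicle mice 4 of 5 lay below the lowest P28 array. Within replicates 1 to 3 the differences were -0.25 in cannabis and -0.39 in vehicle mice, and within replicates 4 and 5 -0.18 and -0.19. A dimmer Vamp3 probe gave -0.27 ± 0.10 in cannabis and -0.30 ± 0.10 in vehicle mice. Vamp2, the principal SNARE of synaptic vesicles, differed by -0.12 ± 0.093 in cannabis and -0.012 ± 0.093 in vehicle mice. Vamp4, which sorts between endosomes and the Golgi and acts in bulk vesicle retrieval, was at 0.22 ± 0.078 in cannabis and 0.17 ± 0.078 in vehicle mice, and its second probe at 0.013 ± 0.062 and 0.18 ± 0.062. Vamp1, a close relative of Vamp2 that is prominent in spinal cord and brainstem, differed by 0.050 ± 0.11 in cannabis and 0.29 ± 0.11 in vehicle mice. Every adult vehicle array of Vamp1 was above every P28 vehicle array, with means of 8.92 ± 0.17 in adults and 8.64 ± 0.076 at P28 (SD, n = 5 and 4). Its second probe gave 0.030 ± 0.12 in cannabis and 0.19 ± 0.12 in vehicle mice.

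Of the 2 complexins tested, Cplx2, the isoform of many excitatory forebrain neurons, was at 8.40, 8.71, 9.05, 8.29 and 8.93 in adult cannabis mice and at 8.18, 8.26, 8.74 and 8.27 in P28 cannabis mice. Its vehicle arrays read 9.30, 9.25, 8.85, 8.84 and 8.61 in adults and 8.78, 8.60, 8.30 and 8.32 at P28. The groups overlapped in both treatments, and the differences were 0.31 ± 0.17 in cannabis mice (adjusted p = 0.559 by limma) and 0.47 ± 0.17 in vehicle mice (0.216). By set, within replicates 1 to 3, they were 0.32 in cannabis and 0.57 in vehicle mice, and within replicates 4 and 5 0.34 and 0.40. Cplx1, typical of inhibitory neurons, differed by -0.078 ± 0.078 in cannabis and 0.066 ± 0.078 in vehicle mice. In the Snap family, Snap29, a SNARE of intracellular and autophagic fusion, was at 8.85, 8.49, 8.25, 8.68 and 8.75 in adult cannabis mice, against 8.83, 8.79, 8.57 and 8.73 in P28 cannabis mice. Its vehicle arrays were at 8.58, 8.33, 8.63, 8.71 and 8.93 in adults and 8.76, 8.81, 8.74 and 8.76 at P28. The groups overlapped, with differences of -0.13 ± 0.11 in cannabis and -0.13 ± 0.11 in vehicle mice. By set, within replicates 1 to 3, they were -0.21 in cannabis and -0.26 in vehicle mice, and within replicates 4 and 5 -0.015 and 0.063. Snap23, the widely expressed homologue of Snap25, was at -0.045 ± 0.11 in cannabis and -0.12 ± 0.11 in vehicle mice.

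The 4 Rab3 genes lay between -0.13 and -0.0023 with age in cannabis mice, and between -0.056 and 0.0065 in vehicle mice, where Rab3d, the isoform of secretory granules, had the smallest p (-0.056 ± 0.070). Rab3a differed by -0.036 ± 0.10 in cannabis and 0.0015 ± 0.10 in vehicle mice, and its second probe by 0.034 ± 0.28 and 0.058 ± 0.28. Rab3b, an isoform of inhibitory terminals, read 7.59, 7.38, 7.53, 7.31 and 7.62 in adult cannabis mice and 7.62, 7.53, 7.63 and 7.68 in P28 cannabis mice. Its vehicle arrays read 7.64, 7.67, 7.59, 7.54 and 7.85 in adults and 7.87, 7.57, 7.49 and 7.73 at P28. Groups overlapped in both treatments, and the differences were -0.13 ± 0.083 in cannabis and -0.0064 ± 0.083 in vehicle mice. By set they were -0.090 in cannabis and -0.0087 in vehicle mice for replicates 1 to 3, and -0.22 and -0.034 for replicates 4 and 5.

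Syn2, a synapsin that keeps the reserve pool in excitatory terminals, was at 11.06, 11.04, 11.05, 10.90 and 11.05 in adult cannabis mice and at 10.79, 10.54, 11.13 and 10.74 in P28 cannabis mice. Replicate 3 at P28 was above all adult arrays, and the difference was 0.23 ± 0.087 (adjusted p = 0.344 by limma). Adult vehicle arrays read 11.29, 11.06, 11.20, 11.24 and 11.07 and P28 vehicle arrays 10.89, 10.79, 10.90 and 10.80. Every adult array was above every P28 array there, and the difference was 0.33 ± 0.087 (0.0712). With the block it was 0.23 in cannabis mice (adjusted p = 0.245) and 0.34 in vehicle mice (0.0459). Without the block it also passed in vehicle mice when P28 cannabis replicate 2 or 3 was left out. Within replicates 1 to 3 it was 0.23 in cannabis and 0.33 in vehicle mice, and within replicates 4 and 5 0.24 in cannabis and 0.36 in vehicle mice. A second, near-background Syn2 probe gave 0.022 ± 0.051 and 0.058 ± 0.051. In cannabis and then vehicle mice, Syn1, the most studied synapsin, was at -0.018 ± 0.075 and -0.12 ± 0.075, Syn3, of immature neurons, at 0.023 ± 0.071 and -0.0045 ± 0.071, and Syp at -0.19 ± 0.098 and -0.13 ± 0.098. The other Syn1 probe had the opposite sign, 0.067 ± 0.077 in cannabis and 0.098 ± 0.077 in vehicle mice.

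**Figure D2:**
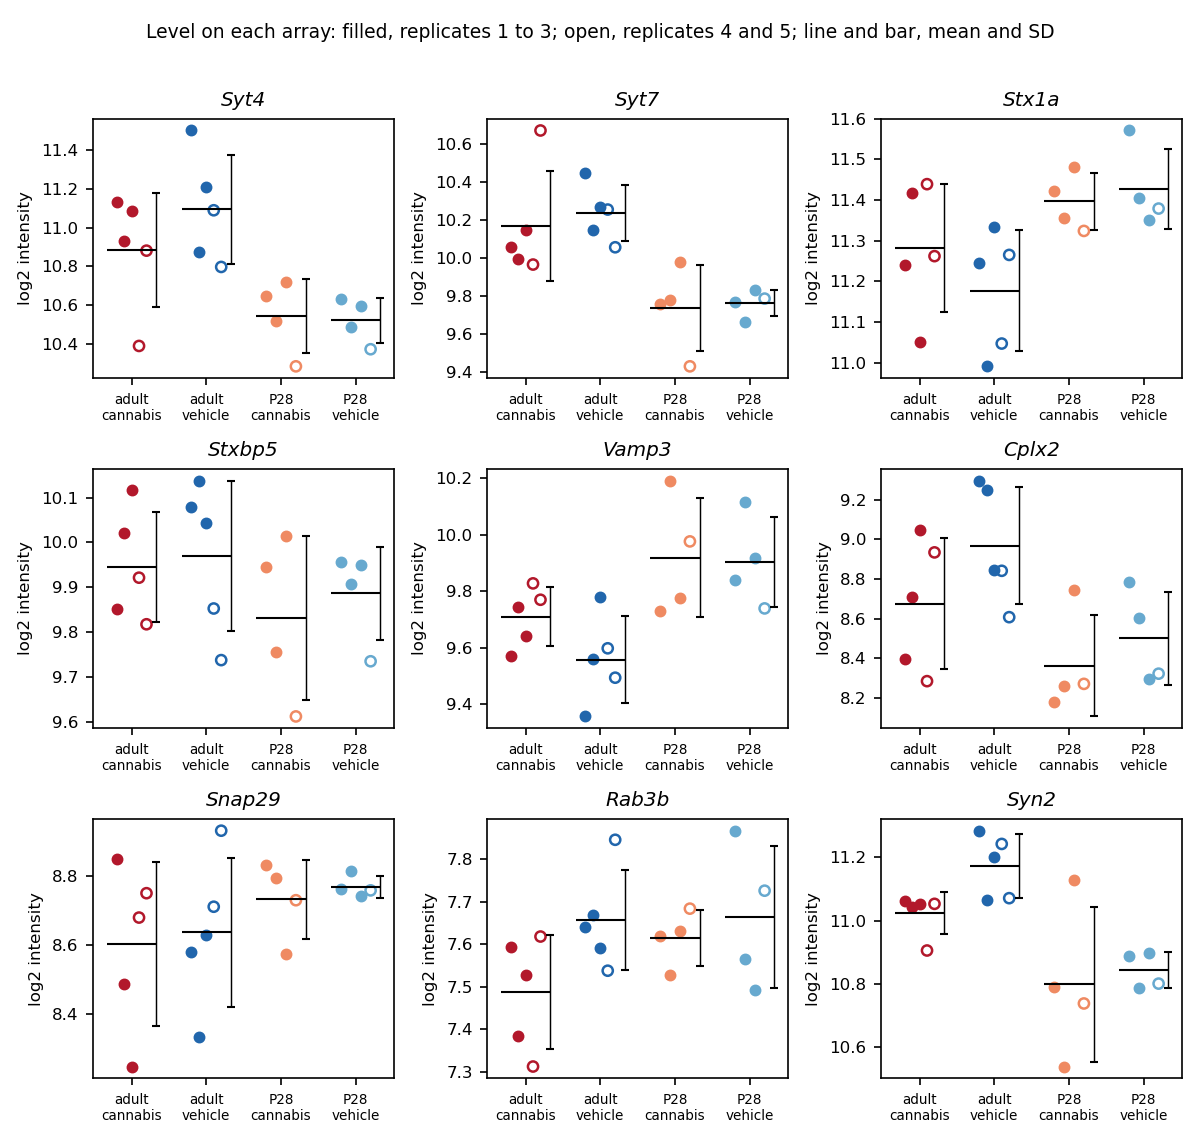
Log2 intensity (y axis) on each array in the 4 groups (x axis) for 9 genes, with the group mean (line) and SD (bar); filled circles are replicates 1 to 3 and open circles replicates 4 and 5. Syt4, Syt7 and Syn2 in adult vehicle mice lie above all P28 vehicle arrays, and Stx1a lies below them.

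**Figure D3:**
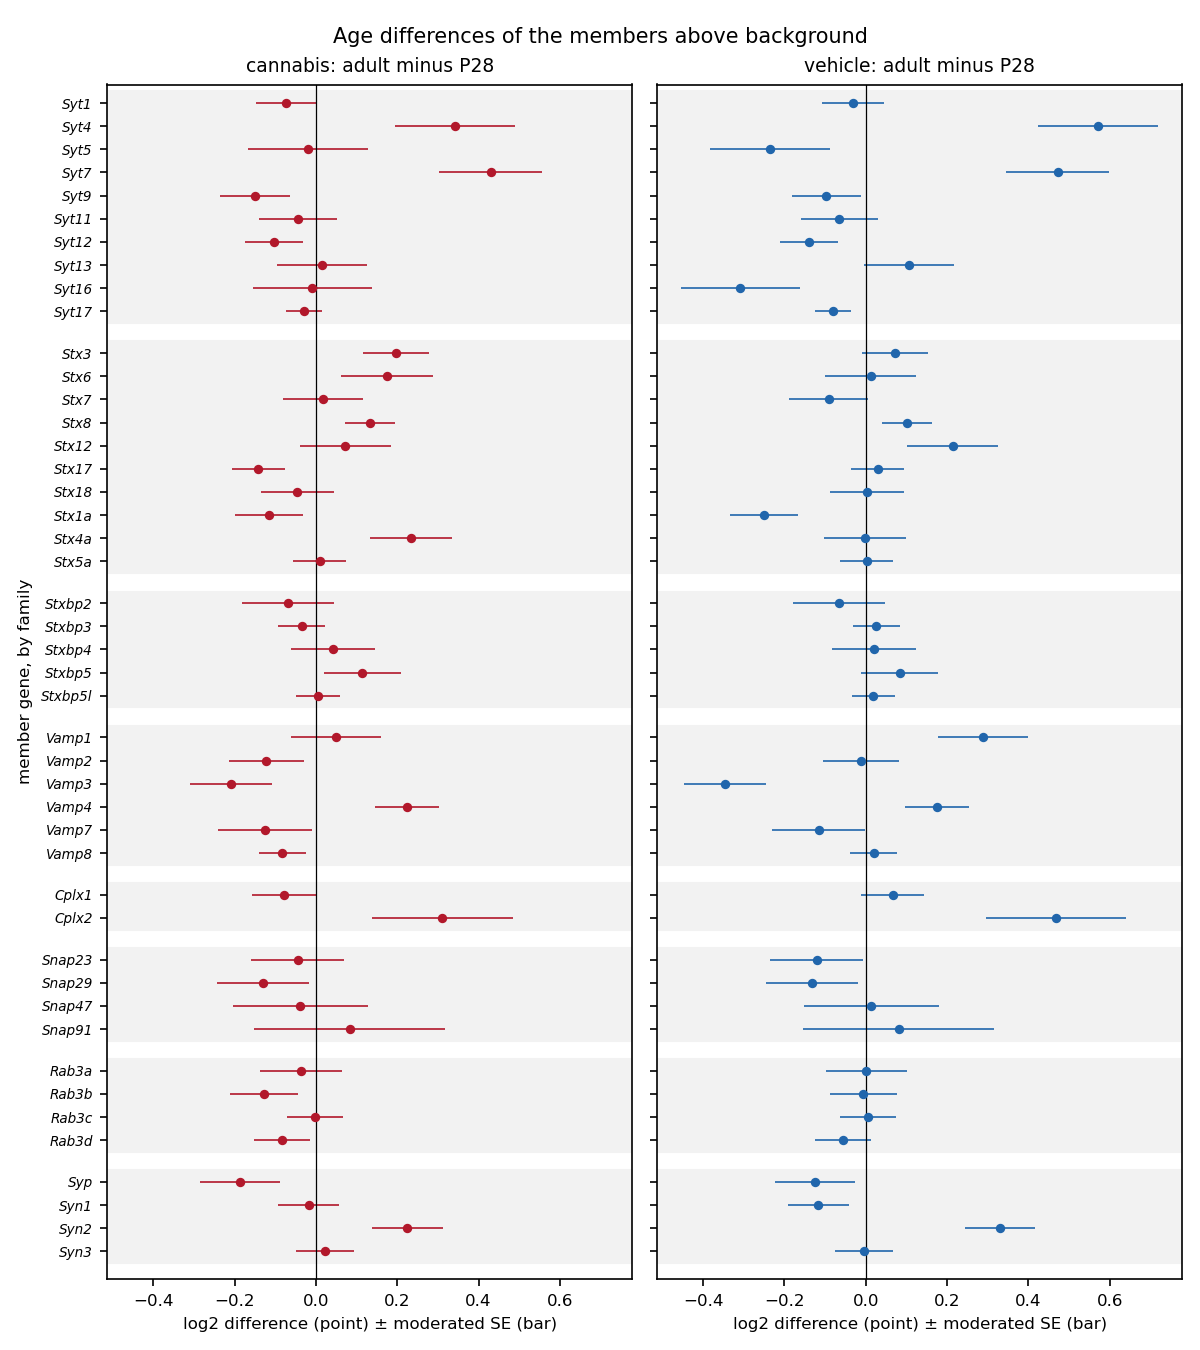
Age difference, adult minus P28, in log2 units (x axis, point with moderated SE) for the 45 genes tested, grouped by family (y axis), in cannabis mice (left) and vehicle mice (right). Syt4, Syt7, Cplx2 and Syn2 lie to the right of 0 in both panels and Vamp3 to the left.

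Over the 45 genes, 16 had a difference above 0 with age in both treatments, 18 below 0 in both and 11 opposite signs. The median was -0.019 in cannabis and 0.0027 in vehicle mice. In cannabis mice 0 genes had groups wholly apart (background 0.958% higher and 1.66% lower). In vehicle mice 4 genes lay wholly above P28 (Syt4, Syt7, Vamp1 and Syn2; background 2.63%) and 1 wholly below it (Stx1a; background 4.23%). Markers of oligodendrocytes had differences below 0 in 8 of 8 genes tested in both treatments (medians -0.99 in cannabis and -1.29 in vehicle mice). By limma 0 of them passed in cannabis and 6 in vehicle mice, and with replicates 4 and 5 as a block 1 and 8. Their mean level ran from 10.49 to 11.37 in adult cannabis, 10.25 to 11.02 in adult vehicle, 11.53 to 12.42 in P28 cannabis and 11.71 to 12.13 in P28 vehicle mice. General neuron markers had medians of 0.16 in cannabis and 0.15 in vehicle mice over 5 genes, with 0 past the threshold, and with the block 0 in cannabis and 1 in vehicle mice (Rbfox3, the NeuN antigen). They were above 0 in 5 of 5 genes in cannabis and 3 of 5 in vehicle mice. Hippocampal field neuron markers were above 0 in 6 of 7 genes in cannabis mice (median 0.042) and below 0 in 5 of 7 in vehicle mice (median -0.065). By limma 0 of them passed in either treatment, and with the block 0 in cannabis and 1 in vehicle mice. Interneuron markers were above 0 in 4 of 7 genes in cannabis and 5 of 7 in vehicle mice. Endothelial markers were above 0 in 6 of 7 genes in cannabis mice and below 0 in 6 of 7 in vehicle mice. Astrocyte and microglia markers were each above 0 in 5 of 8 genes in cannabis mice and below 0 in 7 of 8 in vehicle mice. Choroid plexus markers had differences below 0 in 9 of 9 genes in cannabis mice (median -0.93) and in 8 of 9 in vehicle mice (-0.20). The part of these shifts in the values above was not tested, and in bulk tissue fewer cells of a type and less RNA per cell cannot be told apart.

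RefSeq promoter windows were matched for 49 of the 61 genes, 35 of them tested. The windows used here are the 250 bases before the first listed start on GRCm38.p6. A GC box (GGGCGG on either strand, a match in letters only) occurred in 25 of the 35 windows, 71.4%, against 32.9% of 27025 gene windows. A CCAAT box (CCAAT on either strand) occurred in 34.3% against 34.5%, and a TATA box (TATAAA on either strand) in 5.71% against 13%. The cyclic AMP response element TGACGTCA was in 2 of the 35, those of Stxbp3 and Syn1 (5.71% against 1.62%). The median GC content was 60.4% against 52%. Over all 49 matched members, tested or not, a GC box occurred in 33 windows (67.35%) and the median GC content was 61.2%. The 27025 windows were not limited to genes above background or matched for GC content. The 3 windows printed below belong to genes described by array in the age comparison, with GC boxes in capitals. Syn2 and Cplx2 had differences above 0 and Stx1a one below 0. They lie on the plus strand at chr6:115134652-115134901, chr13:54302306-54302555 and chr5:135023232-135023481, in that order. The Syn2 window holds 2 GC boxes, Cplx2 0 and Stx1a 1.
Syn2: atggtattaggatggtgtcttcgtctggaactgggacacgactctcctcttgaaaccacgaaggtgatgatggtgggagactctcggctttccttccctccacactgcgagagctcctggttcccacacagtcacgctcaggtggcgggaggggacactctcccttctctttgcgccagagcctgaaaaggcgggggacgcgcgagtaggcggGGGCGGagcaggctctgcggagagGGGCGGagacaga
Cplx2: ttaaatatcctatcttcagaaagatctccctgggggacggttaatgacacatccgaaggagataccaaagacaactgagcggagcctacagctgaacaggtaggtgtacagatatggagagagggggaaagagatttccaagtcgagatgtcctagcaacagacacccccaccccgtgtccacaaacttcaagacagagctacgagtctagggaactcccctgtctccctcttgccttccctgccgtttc
Stx1a: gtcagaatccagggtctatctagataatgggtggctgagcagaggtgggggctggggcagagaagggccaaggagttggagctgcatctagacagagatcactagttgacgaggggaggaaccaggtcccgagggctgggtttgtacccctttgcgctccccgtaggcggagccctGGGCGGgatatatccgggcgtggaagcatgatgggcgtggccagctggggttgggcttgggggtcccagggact

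The next comparison set adults that had received the extract weeks earlier against adults that had not. Adult cannabis mice differed from adult vehicle mice by at most 0.17 upward (Syt16) and -0.29 downward (Cplx2) over the 45 genes. By limma 0 passed an adjusted p of 0.05 in either direction (background 0% and 0%). At an unadjusted p under 0.05, 0 were higher (background 1.41%) and 1 lower, Rab3b (background 2.04%). Median differences by family ran from -0.16 for the 2 complexins to 0.062 for the syntaxins, of which 8 of 10 were above 0, and the median over all genes tested was -0.0011.

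Rab3b was at 7.59, 7.38, 7.53, 7.31 and 7.62 in adult cannabis mice and at 7.64, 7.67, 7.59, 7.54 and 7.85 in adult vehicle mice. The lower 3 cannabis arrays were below every vehicle array and the upper ones overlapped, with a difference of -0.17 ± 0.078 (moderated SE; adjusted p = 0.9998 by limma). Stx3 was at 8.41, 8.41, 8.50, 8.55 and 8.79 with cannabis and 8.44, 8.38, 8.36, 8.45 and 8.23 with vehicle. Its difference was 0.16 ± 0.075 (0.047 within replicates 1 to 3 and 0.33 within replicates 4 and 5), and -0.00063 ± 0.053 by its other probe. Syn2 was at 11.06, 11.04, 11.05, 10.90 and 11.05 with cannabis and 11.29, 11.06, 11.20, 11.24 and 11.07 with vehicle, a difference of -0.15 ± 0.082. All 5 cannabis arrays were below all 5 vehicle arrays, though the nearest of them were apart by less than the spread of either group. It was the only gene of the 45 whose adult groups did not overlap (1 lower, background 0.144%, and 0 higher, background 0.173%). By its second, near-background probe the Syn2 difference in adults was 0.0082 ± 0.048.

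Other family members with the smallest p in adults were Cplx2 (-0.29 ± 0.16), Vamp3 (0.15 ± 0.094), Syt4 (-0.21 ± 0.14), Stxbp5l, a second tomosyn (-0.059 ± 0.050), and Snap23 (0.061 ± 0.11), each with an adjusted p of 0.9998 by limma. Cplx2 averaged 8.68 ± 0.33 in adult cannabis mice and 8.97 ± 0.30 in adult vehicle mice (SD, n = 5 each), and the groups overlapped. Within replicates 1 to 3 its difference was -0.41 and within replicates 4 and 5 -0.11. Syt4 averaged 10.88 ± 0.30 with cannabis and 11.09 ± 0.28 with vehicle, and its difference ran from -0.28 to -0.087 when 1 array was left out. By their second probes Vamp3 was at 0.012 ± 0.095 and Stxbp5l at 0.063 ± 0.053, of opposite sign for Stxbp5l. Interneuron markers were below vehicle in 7 of 7 genes (median -0.15) and oligodendrocyte markers above it in 8 of 8 (median 0.27). General neuron markers were above it in 5 of 5 (median 0.13) and hippocampal field neuron markers in 5 of 7 (median 0.16). None of these lists had a gene past the threshold by limma, and their part in these values was not tested.

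Cannabis and vehicle mice were also compared at P28, on the last day of dosing. Differences ran from -0.20 (Syt5, a synaptotagmin of dense-core vesicles) to 0.15 (Stx17, the autophagosomal syntaxin), and 0 of 45 genes passed by limma in either direction (background 0% and 0%). At an unadjusted p under 0.05, 1 was higher, Stx17 (background 1.19%), and 0 lower (background 0.834%). In 0 genes did the groups lie wholly apart (background 0.911% higher and 0.767% lower). All 4 genes of the synapsin and synaptophysin group were below vehicle, from -0.070 to -0.0084, though the other Syn1 probe gave 0.12 ± 0.082 and the second Syn2 probe 0.044 ± 0.053. Family medians lay between -0.037 (Syn and Syp) and 0.044 (Vamp), against -0.00055 over all genes tested.

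Stx17 was at 7.46, 7.18, 7.26 and 7.24 in P28 cannabis mice and at 7.19, 7.07, 7.12 and 7.16 in P28 vehicle mice. The cannabis arrays lay at or above the vehicle range, with replicate 2 inside it, and the difference was 0.15 ± 0.069 (moderated SE; adjusted p = 0.9999 by limma). A second Stx17 probe gave 0.013 ± 0.064. Rab3c, near background, was at 7.03, 7.15, 6.93 and 7.18 with cannabis and 7.02, 6.90, 6.90 and 7.09 with vehicle, a difference of 0.096 ± 0.073. Cplx1 was at 13.88, 13.82, 13.70 and 13.84 with cannabis and 13.56, 13.92, 13.61 and 13.70 with vehicle, a difference of 0.11 ± 0.083, and a vehicle array was the highest of the 8. The smallest p of the other families belonged to Syt5 (-0.20 ± 0.16), Vamp8 (0.072 ± 0.060), Stxbp5l (-0.046 ± 0.056), Snap47 (0.073 ± 0.17) and Syn1 (-0.070 ± 0.079). Choroid plexus markers, from the tissue inside the ventricles, were above vehicle in 9 of 9 genes (median 0.85). Their mean level ran from 7.63 to 9.50 with cannabis and from 7.20 to 8.57 with vehicle, and their part in these values was not tested.

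**Figure D4:**
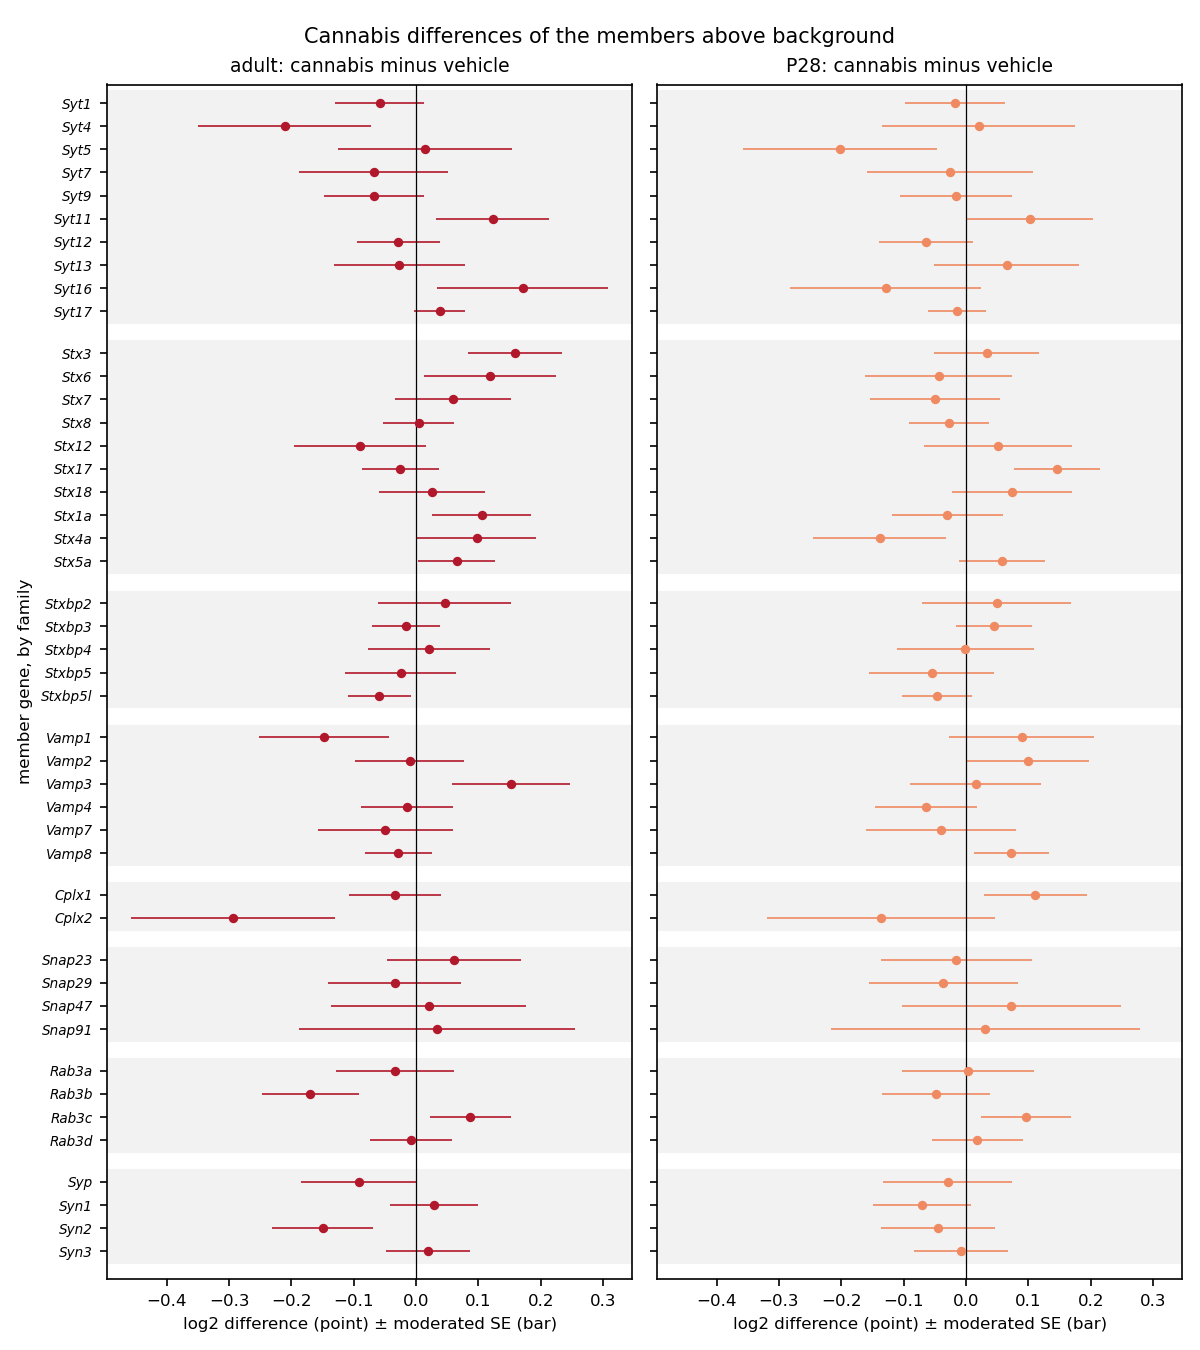
Cannabis difference, cannabis minus vehicle, in log2 units (x axis, point with moderated SE) for the 45 genes tested, grouped by family (y axis), in adults (left) and at P28 (right). Differences stay between -0.29 and 0.17 in adults and between -0.20 and 0.15 at P28.

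Whether the cannabis difference itself depended on age was tested as the adult difference minus the P28 difference. By limma 0 of 45 genes passed (background 0% higher and 0% lower), and at an unadjusted p under 0.05 the counts were 0 higher (background 1.5%) and 0 lower (background 1.71%). The 5 genes with the smallest p were Stx17 (-0.17 ± 0.092), Stx4a, a plasma membrane syntaxin of general secretion (0.24 ± 0.14), Vamp1 (-0.24 ± 0.16), Syt16 (0.30 ± 0.21) and Cplx1 (-0.14 ± 0.11), each with an adjusted p of 0.9996. The second Stx4a probe gave -0.034 ± 0.099, of opposite sign, and the second Stx17 probe -0.026 ± 0.085. Cannabis differences were above 0 at both ages for 9 genes, below 0 at both for 13 and opposite for 23. For Syt4 the cannabis difference was -0.21 ± 0.14 in adults and 0.020 ± 0.16 at P28, and for Syn2 -0.15 ± 0.082 and -0.045 ± 0.091.

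The rest of the release pathway was read from lists of its other parts. In vehicle mice 1 gene fell with age by limma, Sytl2, a synaptotagmin-like effector of Rab27. It was at -0.53 ± 0.17 in cannabis mice (adjusted p = 0.243) and -0.84 ± 0.17 in vehicle mice (adjusted p = 0.0254), where it passed as 1 of 8 tested effectors and regulators of Rab3 and Rab27 (over all genes 0.268% were called higher and 0.939% lower). None of the other lists had a gene past the threshold: 0 of 4 for SNARE disassembly, 0 of 8 for priming and docking, 0 of 6 for the active zone scaffold, 0 of 13 for other vesicle proteins, 0 of 8 for endocytosis and 0 of 4 for presynaptic calcium channels, in either age comparison. In cannabis against vehicle mice 0 genes of the 7 lists passed in adults and 0 at P28.

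The SNARE disassembly adaptors Napa (alpha-SNAP) and Napb (beta-SNAP) were at 0.25 ± 0.070 and 0.26 ± 0.12 with age in cannabis mice and at 0.21 ± 0.070 and 0.30 ± 0.12 in vehicle mice. Nsf, the ATPase they recruit, was at -0.026 ± 0.086 in cannabis and -0.017 ± 0.086 in vehicle mice. With replicates 4 and 5 as a block Napb also passed in vehicle mice (adjusted p = 0.0221 by limma), as did Sh3gl3 (0.045). Rims1, the active zone organiser that binds Rab3, was at 0.42 ± 0.14 in cannabis and 0.34 ± 0.14 in vehicle mice. In the same order, of the transporters that fill vesicles, Slc17a7, for glutamate, was at -0.26 ± 0.089 and -0.27 ± 0.089, and Slc32a1, for GABA and glycine, at -0.30 ± 0.075 and -0.068 ± 0.075. Sh3gl3, an endophilin, was at -0.19 ± 0.13 and -0.38 ± 0.13. Medians by list in vehicle mice ran from -0.068 for other vesicle proteins, with 9 of 13 below 0, to 0.13 for SNARE disassembly.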

How the data were processed

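Biotin-labelled cRNA of 18 hippocampal samples was measured on Illumina mouse bead arrays. The values used are the log2 intensities that the authors deposited as a value table. Every column of it has 1 median (6.86) and range (6.50 to 15.07) in common, so the authors had brought the arrays to 1 distribution. They hold no background subtraction, and the submitters' processing notes name Partek with no version or step. The 72 per-sample columns of the other tables are named by slide position, match no sample label and were not used.

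Of 45281 probes 18250 were kept, those above 6.98 on at least 4 arrays. This level is the signal peak of unexpressed probes, 6.77, raised by 3 times their SD of 0.0702. Symbols came from the platform annotation (34885 probes with 1 symbol). A gene was read at its probe with the highest mean. Symbols had to be the family stem followed by a number, or Rab3 by a letter, so Rab30 to Rab39, Sytl and Snapc genes are no members. The fit used limma 3.58.1 under R 4.3.3 with 1 mean per group over 18 arrays (14 residual and 3.93 prior degrees of freedom), 2-sided moderated tests and a Benjamini-Hochberg threshold of 0.05 across the 18250 probes. Background percentages are over genes at their brightest probe.

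Members, lists and tests were chosen with earlier results of these data known. Named genes are those with the smallest p of each family in each comparison and of the interaction. The array values of Syt7 and the values of Vamp1, Vamp2, Syt1, Nsf and the other members outside this rule were added after seeing them. Deviations of P28 cannabis and vehicle arrays with the same number correlated at 0.196, 0.339, 0.383 and 0.534. Between adult cannabis and adult vehicle arrays the values were -0.151, 0.330, 0.163, 0.498 and 0.430. Between adult and P28 arrays they were 0.020, -0.084, 0.641 and 0.592 in cannabis and 0.366, 0.072, 0.295 and 0.574 in vehicle mice. Each P28 value exceeded 0.1, but not each of the others. The replicate block treats arrays of the same number as matched, which the labels do not state. P28 arrays of the same number also share a set of 6 in deposit order, and differently numbered arrays were not compared. Whether matching or the shared set gave the correlations was not tested. Alternatives tried were all probes unfiltered, a robust prior with a trend, the compared groups alone, the replicate block, the mean of a gene's probes, each array left out, replicates 4 and 5 as a block or apart, a block of 3 sets of 6 by deposit order, and normexp correction (offset 16). The fit was also run on simulated data, with noise independent between arrays and no shift of replicates 4 and 5. Because these arrays do hold such a shift, that run does not show how many real differences were missed here. The number of arrays limits the precision.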

Additional observations from a re-analysis of the deposited data

Results flagged for a closer look

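Array values of the 24 named genes were examined in each of the 4 groups, 96 sets of values, and in 3 of them the highest or lowest array lay far from the others by Dixon's criterion, which chance meets in about 1 of 20 sets. In adult cannabis mice Syt7 read 10.67 on replicate 5, with the next array at 10.15 and the lowest at 9.97. Syn2 read 10.90 on adult cannabis replicate 4, below the next array at 11.04 and the highest at 11.06. Cplx2 read 8.74 on P28 cannabis replicate 3, above the next array at 8.27 and the lowest at 8.18.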

How the results depend on the processing

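The count of genes called stayed at 0 for cannabis against vehicle at both ages, for age in cannabis mice and for the interaction under all alternatives run, including each array left out. For age in vehicle mice it was 0, and 3 with the 2 compared groups alone (Syt4, Syt7 and Syn2), 2 with the replicate block (Syt4 and Syn2), 2 with replicates 4 and 5 as a block (the same pair) and 1 with the 3 sets of 6 as a block (Syt4). Leaving out 1 array gave 0 to 1: Syt4 without adult vehicle replicate 2 or adult cannabis replicate 4, Syn2 without P28 cannabis replicate 2 or 3, and Syt7 without adult cannabis replicate 5. The replicate block ties arrays of the same number across all 4 groups, and it changed no call in the P28 comparison. Probes called for age in vehicle mice numbered 195, against 99 without the filter, 375 with the compared groups alone, 359 with the replicate block, 419 and 554 with the blocks of replicates 4 and 5 and of sets, 4 within replicates 1 to 3, 0 within replicates 4 and 5, and 28 to 317 leaving out 1 array. In cannabis mice they numbered 5, against 0 to 141. Of 37 values of named genes, the signs turned for Stxbp5l in adults (0.022) and Syn1 at P28 (0.023) on averaging probes, for Snap47 at P28 (-0.071) and, with age in vehicle mice, Snap29 (0.063) and Rab3d (0.022) within replicates 4 and 5, and leaving out 1 array at P28 for Snap47 (-0.0059 to 0.13) and Syn1 (-0.13 to 0.0012). None of these had passed the test. The causes were not tested. Values of Rab3c, Syt17 and Stxbp3 rest on signal near background.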

Other observations

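Of the 45 genes tested, 19 had more than 1 probe above background. All probes of a gene had the same sign in 11 of these 19 for cannabis in adults, 8 of 19 for cannabis at P28, 11 of 19 for age in cannabis mice and 12 of 19 for age in vehicle mice. Syt4, Syt7, Stx1a and Cplx2 each had 1 probe above background. The spread of arrays within a group was widest for Snap91 in all 4 groups, with SDs of 0.35 in adult cannabis, 0.41 in adult vehicle, 0.32 in P28 cannabis and 0.47 in P28 vehicle mice, against medians of 0.15, 0.13, 0.14 and 0.10 over the 45 genes.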
